A study of Homo sapiens with 12 samples.

Results

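A set of 10 genes of the YAP/TAZ system was chosen by name and function: the co-activators YAP1 and WWTR1 (the gene of TAZ), their DNA-binding partner TEAD1, the kinase LATS2, the pathway regulators AMOTL1, AMOTL2 and AJUBA, and the transcriptional targets CCN1, CCN2 and ANKRD1. The set was chosen with earlier results of these data known. These genes are 10 of the 20289 genes in the deposited table, and all 10 passed the filter on low counts that left 12821 genes for testing. Messenger RNA was sequenced from U251, an established human glioblastoma cell line, after knockdown of CD44 and treatment with the alkylating chemotherapy drug temozolomide. CD44 encodes a cell-surface receptor for the matrix polysaccharide hyaluronan. There were 4 groups with 3 libraries each: CD44 knockdown with temozolomide (shCD44 temozolomide), control cells with temozolomide (shCtrl temozolomide), CD44 knockdown with the solvent DMSO (shCD44 DMSO) and control cells with DMSO (shCtrl DMSO). Knockdown cells carried a lentiviral short hairpin RNA against CD44, control cells are titled shCtrl with DMSO but NC with temozolomide and have the genotype WT in both cases, and drug or solvent was given for 24 h, temozolomide at 50 µM. Although their titles differ, the sample descriptions name both control groups NC, and both are taken here as the same kind of control cells. The labels give neither the number of hairpins nor whether the lines are clones. Nothing in them tells separate cultures from repeat libraries of 1 culture within a group, so the p-values measure the spread between these libraries, which may be technical.

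In the Hippo pathway, the kinases STK3 and STK4 activate the kinases LATS1 and LATS2, which phosphorylate YAP1 and TAZ and keep them in the cytoplasm or mark them for degradation. Unphosphorylated YAP1 and TAZ enter the nucleus and bind TEAD factors on the promoters and enhancers of genes such as CCN1, CCN2 and ANKRD1. Activity of YAP1 and TAZ responds to matrix stiffness, cell shape and cell density, and is regulated largely through phosphorylation and location of the proteins, which messenger RNA levels do not measure. Several regulators of the pathway, among them LATS2, AMOTL2 and AJUBA, are also known as transcriptional targets of YAP1 and TAZ.

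The libraries held between 13506946 and 24757977 estimated counts. The knockdown was visible in every library: CD44 lay between 319.8 and 333 counts per 1000000 (CPM) in shCD44 temozolomide against 804 to 851 CPM in shCtrl temozolomide, and between 419 and 421 CPM in shCD44 DMSO against 1043 to 1127 CPM in shCtrl DMSO. Of 9 astroglial markers, 7 or 8 exceeded 1 CPM in each group, while the defining astrocyte genes GFAP and S100B were at most 1.80 and 0.479 CPM in any library. Of 4 leukocyte markers only CD68 exceeded 1 CPM, of 3 endothelial markers only CDH5, of 4 epithelial markers only KRT14 and KRT18, and of 3 neuronal markers none. The summed epithelial markers moved with the groups, at 173 to 193 CPM in shCD44 temozolomide against 340 to 342 CPM in shCtrl temozolomide, and at 239 to 261 CPM in shCD44 DMSO against 433 to 455 CPM in shCtrl DMSO. EPCAM and CDH1, which define epithelium, were at most 0.215 and 0.120 CPM. The summed endothelial markers were 13.2 to 13.996 CPM in shCD44 temozolomide against 19.6 to 23.4 CPM in shCtrl temozolomide, and 28.01 to 29.1 CPM in shCD44 DMSO against 41.8 to 47.0 CPM in shCtrl DMSO. The summed leukocyte markers were 24.3 to 27.4 CPM in shCD44 temozolomide against 13.7 to 16.3 CPM in shCtrl temozolomide, and 23.0 to 26.2 CPM in shCD44 DMSO against 15.5 to 17.2 CPM in shCtrl DMSO, with AIF1 at 0 in every library. The part of these marker genes in the results below was not tested. The GC-rich minus GC-poor difference in log2 level ran from 0.07 to 0.21 in the shCtrl DMSO libraries and from -0.13 to 0.07 in the other 9. The GC content of the 10 genes ran from 40.9% in WWTR1 to 56.7% in AMOTL2.

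In cells without the drug, CD44 knockdown was accompanied by higher messenger RNA of 9 of the 10 genes, with CCN2 and CCN1 2.76-fold and 2.53-fold higher and the other 7 between 1.13-fold and 1.55-fold higher. ANKRD1 was the exception. Among all 12821 genes tested, 21.1% were called higher and 21.4% lower in the same comparison (42.6% in either direction), at an adjusted p below 0.05. All 3 knockdown libraries lay above all 3 control libraries in the same 9 genes, as in 25.8% of all genes tested, and 25.5% lay wholly below. The median log2 fold change of the 10 genes was 0.32, beside -0.00 over all genes tested. CPM in bulk RNA cannot tell a change in the RNA per cell from a change in the number of cells that express a gene. With libraries scaled by their totals alone, 3387 genes were higher and 2167 lower, in place of 2710 and 2748, and the same 9 of the 10 genes were higher. With a GC correction these 9 were also called.

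YAP1 (ENSG00000137693), the co-activator that carries no DNA-binding domain of its own, had 211, 208 and 217 CPM in shCD44 DMSO libraries and 179, 185 and 173 CPM in shCtrl DMSO libraries. Every knockdown library lay above every control library. The log2 fold change was 0.25 (SE 0.04, adjusted p = 1.96e-05, edgeR quasi-likelihood test with Benjamini-Hochberg adjustment, as for all adjusted p-values unless stated). WWTR1 (ENSG00000018408), whose product TAZ is the paralogue of YAP1, had 192, 180.3 and 183 CPM in shCD44 DMSO libraries and 143, 146 and 141 CPM in shCtrl DMSO libraries. The groups again did not overlap, and the log2 fold change was 0.37 (SE 0.04, adjusted p = 6.75e-08). TEAD1 (ENSG00000187079), which brings both co-activators to DNA, had 233, 232 and 244 CPM in shCD44 DMSO libraries and 178, 200.5 and 169 CPM in shCtrl DMSO libraries. All knockdown libraries lay above the highest control library, and the log2 fold change was 0.37 (SE 0.05, adjusted p = 1.31e-06).

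The 4 regulators among the 10 genes were higher as well. LATS2 (ENSG00000150457) had 33.7, 33.7 and 31.7 CPM in shCD44 DMSO libraries and 31.1, 28.2 and 25.3 CPM in shCtrl DMSO libraries, where 31.7 and 31.1 CPM were the nearest libraries of the groups, and a log2 fold change of 0.23 (SE 0.07, adjusted p = 0.0148). AMOTL1 (ENSG00000166025) and AMOTL2 (ENSG00000114019) are angiomotin-family scaffolds that bind YAP1 and TAZ and hold them at junctions or in the cytoplasm. AMOTL1 had 32.4, 35.5 and 34.6 CPM in shCD44 DMSO libraries and 21.5, 25.1 and 19.8 CPM in shCtrl DMSO libraries. It had the largest rise of the 7 effectors and regulators, with a log2 fold change of 0.63 (SE 0.08, adjusted p = 1.24e-06) and no overlap. AMOTL2 had 74.0, 83.5 and 74.7 CPM in shCD44 DMSO libraries and 70.1, 70.6 and 64.1 CPM in shCtrl DMSO libraries, a log2 fold change of 0.18 (SE 0.07, adjusted p = 0.0336). AJUBA (ENSG00000129474), a LIM-domain scaffold that binds LATS kinases and holds their activity down, had 84.2, 83.1 and 81.7 CPM in shCD44 DMSO libraries and 70.8, 68.8 and 65.7 CPM in shCtrl DMSO libraries. Its log2 fold change was 0.28 (SE 0.05, adjusted p = 0.000175). The calls of LATS2 and AMOTL2 were the least secure: without shCtrl DMSO replicate 3 their log2 fold changes were 0.16 and 0.14, without shCD44 DMSO replicate 2 they were 0.22 and 0.13, and none of these 4 values passed the threshold. WWTR1, AMOTL2 and AJUBA also missed it on the authors' length-scaled FPKM values, at log2 differences of 0.26, 0.19 and 0.31 with limma and a pseudocount of 1.

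The targets did not move together under knockdown. CCN1 and CCN2 encode secreted matricellular proteins that bind integrins. CCN1 (ENSG00000142871) had 169, 167 and 162 CPM in shCD44 DMSO libraries and 66.5, 67.2 and 63.3 CPM in shCtrl DMSO libraries, a log2 fold change of 1.34 (SE 0.04, adjusted p = 1.48e-15). CCN2 (ENSG00000118523) had 132, 119.8 and 128 CPM in shCD44 DMSO libraries and 49.9, 44.8 and 42.8 CPM in shCtrl DMSO libraries, a log2 fold change of 1.47 (SE 0.08, adjusted p = 2.49e-12). For both genes the lowest knockdown library stood far above the highest control library. ANKRD1 (ENSG00000148677), a nuclear and sarcomeric ankyrin-repeat protein and a standard reporter gene of YAP1 activity, had 43.1, 41.9 and 38.0 CPM in shCD44 DMSO libraries and 36.9, 39.1 and 39.5 CPM in shCtrl DMSO libraries. These groups overlapped, and the log2 fold change of 0.08 did not pass the threshold (95% interval -0.05 to 0.22, adjusted p = 0.291). The upper bound of this interval lies below the lower bounds for CCN1 and CCN2.

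**Figure D1:**
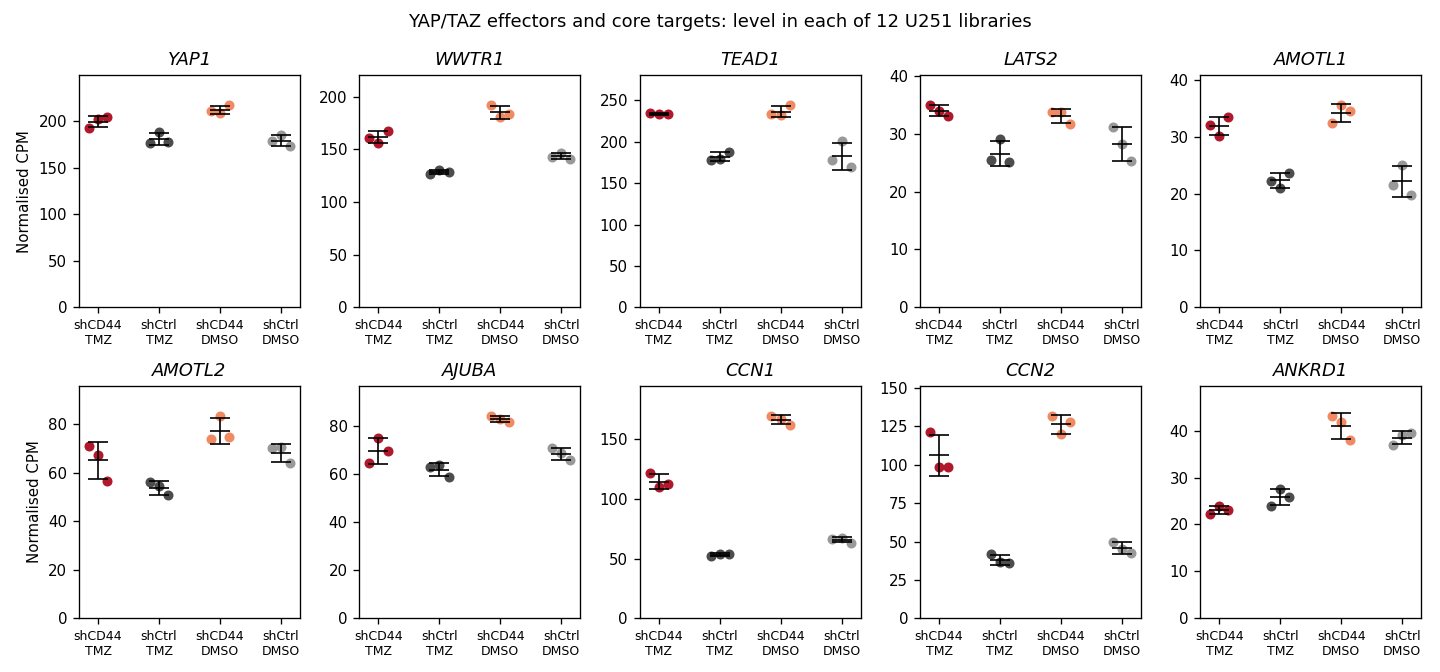
Normalised CPM (vertical axes from 0) of the 10 genes in each of the 12 libraries, by group (horizontal axes, TMZ is temozolomide); points are libraries, bars are mean ± SD of 3 libraries. By mean CPM, CCN1 and CCN2 were each higher in both shCD44 groups than in either shCtrl group. The same held for YAP1, WWTR1, TEAD1, LATS2, AMOTL1 and AJUBA. ANKRD1 separates temozolomide (22.2 to 27.6 CPM) from DMSO (36.9 to 43.1 CPM) in both kinds of cells.

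CCN2 was called under knockdown and ANKRD1 was not, and both are known to carry TEAD binding sites near their starts, so their proximal promoters are shown. Sequences are from RefSeq (GRCh38.p14) and cover the 250 bases before the annotated start, 5′ to 3′ on the gene's strand; 8 of the 10 genes were matched, without CCN1 and TEAD1. Capitals mark GGAATG, the core of the TEAD binding motif, which was searched on both strands. The windows are chr6:131951373-131951622 on the minus strand for CCN2 and chr10:90921088-90921337 on the minus strand for ANKRD1.
CCN2: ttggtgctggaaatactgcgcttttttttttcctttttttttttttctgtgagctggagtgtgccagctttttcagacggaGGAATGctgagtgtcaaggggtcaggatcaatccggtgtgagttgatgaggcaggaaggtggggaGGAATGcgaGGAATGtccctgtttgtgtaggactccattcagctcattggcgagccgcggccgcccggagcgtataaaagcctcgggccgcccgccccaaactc
ANKRD1: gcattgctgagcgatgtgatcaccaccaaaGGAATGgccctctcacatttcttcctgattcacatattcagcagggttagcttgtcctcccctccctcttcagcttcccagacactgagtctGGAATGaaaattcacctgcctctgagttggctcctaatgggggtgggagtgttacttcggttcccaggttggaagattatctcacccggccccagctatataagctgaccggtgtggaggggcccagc

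The CCN2 window held 3 matches, which begin at -169, -104 and -95 from the start, and the ANKRD1 window held 2, which begin at -220 and -128. The YAP1 window held 1, at -162, and those of WWTR1, LATS2, AMOTL1, AMOTL2 and AJUBA held none. Each gene is represented by 1 annotated start, and other starts that a gene may have were not searched. Of 27305 promoter windows of the same length, 11.9% held at least 1 match, 0.963% at least 2 and 0.0952% at least 3. TGANTCA, a loose form of the AP-1 motif with any base at N, was also searched on both strands. It was found once in ANKRD1, at -195, in none of the other 7 windows, and in 6.60% of all windows. The ANKRD1 match reads TGATTCA and does not overlap the GGAATG matches. A stricter form of the motif was not searched. CCN2, with 3 matches, was higher under knockdown and ANKRD1, with 2, was not called. YAP1, with 1 match, and WWTR1, LATS2, AMOTL1, AMOTL2 and AJUBA, with none, were also called higher under knockdown. A relation between matches and calls was not tested. A match is a run of letters and does not show that a factor is bound.

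Under temozolomide the comparison of knockdown with control cells gave the same 9 genes as higher, with CCN2 and CCN1 2.77-fold and 2.15-fold higher and the other 7 between 1.10-fold and 1.42-fold higher. Of all genes tested, 22% were called higher and 20.3% lower in this comparison (42.3% in either direction). The 9 genes lay wholly above the control libraries and ANKRD1 wholly below, as did 26.4% and 24.4% of all genes tested. The median log2 fold change was 0.35 for the 10 genes and 0.01 for all genes tested. The libraries are separate from those of the DMSO comparison, but the kinds of cells and the fit are shared. The 2 comparisons are therefore not independent repeats. With library totals alone, 3457 genes were higher and 2126 lower, in place of 2823 and 2603, and 9 of the 10 genes were higher.

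YAP1 had 192, 202 and 204 CPM in shCD44 temozolomide libraries and 177, 188 and 178 CPM in shCtrl temozolomide libraries, the smallest of the rises, with a log2 fold change of 0.14 (SE 0.04, adjusted p = 0.00414). WWTR1 had 160.3, 156 and 168 CPM in shCD44 temozolomide libraries and 126, 130.05 and 129 CPM in shCtrl temozolomide libraries (log2 fold change 0.33, SE 0.04, adjusted p = 3.57e-07). TEAD1 had 235, 233 and 233 CPM in shCD44 temozolomide libraries and 178, 179 and 188 CPM in shCtrl temozolomide libraries (log2 fold change 0.36, SE 0.05, adjusted p = 1.83e-06). For these 3 effectors no knockdown library reached down to a control library. LATS2 had 34.9, 34.0 and 33.0 CPM in shCD44 temozolomide libraries and 25.4, 29.03 and 25.1 CPM in shCtrl temozolomide libraries (log2 fold change 0.36, SE 0.07, adjusted p = 0.000333). AMOTL1 had 32.0, 30.2 and 33.4 CPM in shCD44 temozolomide libraries and 22.2, 21.0 and 23.7 CPM in shCtrl temozolomide libraries (log2 fold change 0.51, SE 0.08, adjusted p = 1.49e-05). These 2 regulators were also free of overlap, and LATS2 was more clearly separated than under DMSO.

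AMOTL2 had 71.3, 67.3 and 56.8 CPM in shCD44 temozolomide libraries and 56.4, 54.5 and 50.8 CPM in shCtrl temozolomide libraries, where the lowest knockdown library stood just above the highest control library (log2 fold change 0.28, SE 0.07, adjusted p = 0.00265). AJUBA had 64.4, 75.2 and 69.6 CPM in shCD44 temozolomide libraries and 62.9, 63.9 and 58.9 CPM in shCtrl temozolomide libraries (log2 fold change 0.18, SE 0.05, adjusted p = 0.0097). The AJUBA call was lost without shCD44 temozolomide replicate 2 (0.11), without shCtrl temozolomide replicate 3 (0.14), with a GC correction (0.13) and on FPKM values (0.27). CCN1 had 121, 109.8 and 112 CPM in shCD44 temozolomide libraries and 52.2, 54.0 and 53.9 CPM in shCtrl temozolomide libraries (log2 fold change 1.10, SE 0.04, adjusted p = 5.17e-14). CCN2 had 121, 98.5 and 98.6 CPM in shCD44 temozolomide libraries and 41.8, 36.6 and 35.8 CPM in shCtrl temozolomide libraries (log2 fold change 1.47, SE 0.08, adjusted p = 2.88e-12). Both secreted targets were again more than 2-fold higher in every pairing of a knockdown with a control library. ANKRD1 had 22.2, 23.8 and 23.2 CPM in shCD44 temozolomide libraries and 24.0, 27.6 and 25.9 CPM in shCtrl temozolomide libraries, so that here all knockdown libraries lay below all control libraries. Its log2 fold change of -0.15 (SE 0.07) missed the threshold, with an adjusted p of 0.0785, and passed it as lower with a GC correction (-0.18) and without shCtrl temozolomide replicate 1 (-0.21).

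Temozolomide was accompanied by lower messenger RNA of the targets and of some regulators, and the drug left none of the 10 genes higher in either kind of cells. In knockdown cells 6 of the 10 genes fell, namely WWTR1, AMOTL2, AJUBA, CCN1, CCN2 and ANKRD1, where 13.2% of all genes tested were called lower and 9.05% higher (22.3% in either direction). The same 6 fell in control cells, where 15.8% of all genes were called lower and 11.7% higher (27.5% in either direction). In knockdown cells 6 of the 10 genes lay wholly below the DMSO libraries, with YAP1 in place of CCN2, as did 19.8% of all genes tested, and 17.5% lay wholly above. In control cells the 6 called genes lay wholly below, as did 21.6% of all genes tested, and 18.1% lay wholly above. The median log2 fold change of the 10 genes was -0.22 in knockdown cells and -0.15 in control cells, beside 0.00 and -0.00 over all genes tested. With library totals alone, 2533 genes were higher and 1078 lower in knockdown cells, in place of 1160 and 1694, and 5 of the 10 genes remained lower; in control cells 2870 genes were higher and 1295 lower, in place of 1505 and 2024, and 3 of the 10 remained lower. The per-library levels of these groups are those given above.

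ANKRD1 had the largest fall of the 10 genes. It averaged 23.1 ± 0.852 CPM in shCD44 temozolomide and 41.0 ± 2.69 CPM in shCD44 DMSO (SD, n = 3 each), a fold of 0.565 and a log2 fold change of -0.82 (SE 0.07, adjusted p = 9.62e-09). In control cells it averaged 25.8 ± 1.78 CPM in shCtrl temozolomide and 38.5 ± 1.41 CPM in shCtrl DMSO (SD, n = 3 each), a fold of 0.667 and a log2 fold change of -0.58 (SE 0.07, adjusted p = 1.17e-06). No drug-treated library reached the lowest DMSO library in either kind of cells. CCN1 averaged 114 ± 6.03 CPM in shCD44 temozolomide and 166 ± 3.79 CPM in shCD44 DMSO, a log2 fold change of -0.54 (SE 0.04, adjusted p = 3.59e-09). In control cells CCN1 averaged 53.4 ± 0.965 CPM in shCtrl temozolomide and 65.7 ± 2.07 CPM in shCtrl DMSO, a log2 fold change of -0.30 (SE 0.05, adjusted p = 6.65e-05). ANKRD1 and CCN1 were called lower in both kinds of cells under every alternative that was run.

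CCN2, by contrast, showed a smaller fall. It averaged 106 ± 13.1 CPM in shCD44 temozolomide and 126 ± 6.12 CPM in shCD44 DMSO, a log2 fold change of -0.25 (SE 0.07, adjusted p = 0.0105), and 1 drug-treated library, at 121 CPM, lay above the lowest DMSO library. In control cells it averaged 38.1 ± 3.23 CPM in shCtrl temozolomide and 45.8 ± 3.69 CPM in shCtrl DMSO, a log2 fold change of -0.26 (SE 0.08, adjusted p = 0.0272), with 41.8 and 42.8 CPM as the nearest libraries of the groups. The call in knockdown cells was lost without shCD44 temozolomide replicate 2 (-0.20) or 3 (-0.21), without shCD44 DMSO replicate 1 (-0.22) and on FPKM values (-0.19). The call in control cells was lost without shCtrl temozolomide replicate 2 (-0.23) or 3 (-0.21), without shCtrl DMSO replicate 1 (-0.19), with library totals (-0.19), with a GC correction (-0.21) and on FPKM values.

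Of the co-activators only WWTR1 was called. It averaged 161 ± 5.85 CPM in shCD44 temozolomide and 185 ± 6.01 CPM in shCD44 DMSO (log2 fold change -0.20, SE 0.04, adjusted p = 0.00046), and 128 ± 1.89 CPM in shCtrl temozolomide and 143 ± 2.73 CPM in shCtrl DMSO (log2 fold change -0.16, SE 0.04, adjusted p = 0.00308). The groups did not overlap in either kind of cells, but the WWTR1 calls were lost on FPKM values, at -0.02 in knockdown cells and -0.16 in control cells, and in control cells also with library totals (-0.09). YAP1 averaged 199 ± 6.28 CPM in shCD44 temozolomide and 212 ± 4.45 CPM in shCD44 DMSO, a log2 fold change of -0.09 that was not called (adjusted p = 0.0945) although the groups did not overlap. In control cells YAP1 averaged 181 ± 6.19 CPM with temozolomide and 179 ± 5.98 CPM with DMSO (log2 fold change 0.02, adjusted p = 0.805). TEAD1 averaged 234 ± 0.884 CPM in shCD44 temozolomide and 236 ± 6.80 CPM in shCD44 DMSO, and 182 ± 5.26 CPM in shCtrl temozolomide and 183 ± 16.1 CPM in shCtrl DMSO. Its 95% intervals for the drug, -0.11 to 0.08 in knockdown cells and -0.10 to 0.09 in control cells lie around 0.

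Among the regulators, AMOTL2 averaged 65.2 ± 7.47 CPM in shCD44 temozolomide and 77.4 ± 5.29 CPM in shCD44 DMSO (log2 fold change -0.24, SE 0.07, adjusted p = 0.0124). In control cells it averaged 53.9 ± 2.86 CPM with temozolomide and 68.3 ± 3.65 CPM with DMSO (log2 fold change -0.34, SE 0.07, adjusted p = 0.000981). Its call in knockdown cells was lost without shCD44 temozolomide replicate 3 (-0.16) or shCD44 DMSO replicate 2 (-0.19). It was also lost there with library totals (-0.18) and on FPKM values (-0.17). Its call in control cells was lost on FPKM values with a pseudocount of 0.1 (-0.28), and with a pseudocount of 1 and no filter (-0.27). AJUBA averaged 69.7 ± 5.40 CPM in shCD44 temozolomide and 83.0 ± 1.23 CPM in shCD44 DMSO (log2 fold change -0.25, SE 0.05, adjusted p = 0.00145), a call that was lost on FPKM values (-0.13). In control cells AJUBA averaged 61.9 ± 2.63 CPM with temozolomide and 68.4 ± 2.55 CPM with DMSO, a log2 fold change of -0.14 at the edge of the threshold (SE 0.05, adjusted p = 0.0473), which was lost in 16 of 24 alternatives, among them each leave-one-out fit except those without shCD44 temozolomide replicates 1 and 2 or shCtrl DMSO replicate 3. LATS2 and AMOTL1 were called in neither kind of cells. Their log2 fold changes were 0.04 and -0.11 in knockdown cells (adjusted p = 0.723 and 0.327) and -0.09 and 0.01 in control cells (adjusted p = 0.399 and 0.921).

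**Figure D2:**
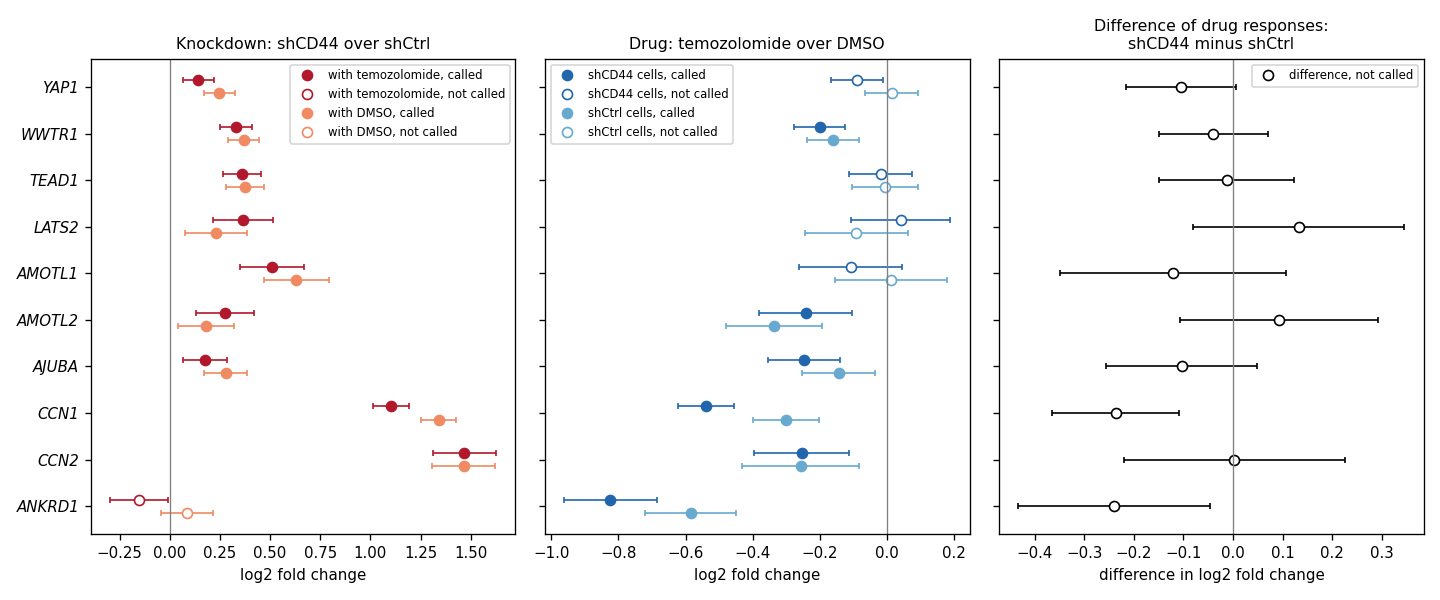
log2 fold changes (horizontal axes) with 95% intervals from the edgeR fit for shCD44 over shCtrl, temozolomide over DMSO, and the difference between the drug responses (shCD44 minus shCtrl); filled points passed an adjusted p of 0.05 and open points did not. In the knockdown panel 9 genes lie right of 0 with both treatments and ANKRD1 straddles it; in the drug panel ANKRD1 lies farthest left, at -0.82 and -0.58; in the difference panel no gene was called.

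The 10 genes differed in the order of their group levels, given here from the highest to the lowest mean CPM. WWTR1 and CCN1 had the order shCD44 DMSO, shCD44 temozolomide, shCtrl DMSO, shCtrl temozolomide, with no overlap between neighbours. CCN2, TEAD1 and AJUBA followed the same order, but the shCD44 groups overlapped in CCN2 and TEAD1, the shCtrl groups overlapped in TEAD1, and shCD44 temozolomide overlapped shCtrl DMSO in AJUBA. AMOTL1 and YAP1 ran shCD44 DMSO, shCD44 temozolomide, shCtrl temozolomide, shCtrl DMSO, where the shCtrl groups overlapped in both and the shCD44 groups overlapped in AMOTL1. LATS2 ran shCD44 temozolomide, shCD44 DMSO, shCtrl DMSO, shCtrl temozolomide, where the groups of 1 kind of cells overlapped and the kinds did not. AMOTL2 ran shCD44 DMSO, shCtrl DMSO, shCD44 temozolomide, shCtrl temozolomide, where the middle pair overlapped. ANKRD1 alone of the 10 genes ran shCD44 DMSO, shCtrl DMSO, shCtrl temozolomide, shCD44 temozolomide, where only the DMSO groups overlapped.

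The combined comparison of shCD44 temozolomide with shCtrl DMSO shares its libraries with the comparisons above. In it 7 of the 10 genes were higher and ANKRD1 was lower, where 25.4% of all genes tested were called higher and 24.5% lower (49.9% in either direction). The same 7 lay wholly above and ANKRD1 wholly below, as did 28.3% and 26.5% of all genes tested. CCN2 was 2.32-fold higher (log2 fold change 1.21, SE 0.08, adjusted p = 3.01e-11) and CCN1 1.74-fold higher (log2 fold change 0.80, SE 0.04, adjusted p = 3.49e-12). ANKRD1 had a fold of 0.599 (log2 fold change -0.74, SE 0.07, adjusted p = 1.01e-08). AMOTL1, TEAD1, LATS2, WWTR1 and YAP1 had log2 fold changes of 0.52, 0.36, 0.27, 0.17 and 0.16. WWTR1 missed the threshold on FPKM values (0.23). AMOTL2 and AJUBA, which were higher under knockdown and lower under the drug, had log2 fold changes of -0.06 and 0.03 and were not called (adjusted p = 0.492 and 0.647). Scaling by library totals moved the median over all genes in this comparison to 0.12, against 0.01 in the main scaling, gave 5053 genes higher and 2039 lower in place of 3255 and 3143, and called AJUBA higher at 0.14.

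The response to temozolomide was then compared between the 2 kinds of cells through the difference of the log2 fold changes, shCD44 minus shCtrl. None of the 10 genes passed the threshold in edgeR, where 1.05% of all genes tested did (0.437% higher and 0.616% lower). CCN1 came closest, with a difference of -0.24 (SE 0.06, 95% interval -0.37 to -0.11, adjusted p = 0.0592). It passed with DESeq2 (-0.25, adjusted p = 0.0233), without the filter on low counts (-0.25, adjusted p = 0.0162), and without shCD44 temozolomide replicate 1 (-0.28), shCtrl temozolomide replicate 1 (-0.25) or shCtrl DMSO replicate 2 (-0.26), and its adjusted p ran up to 0.272 over the alternatives. ANKRD1 had a difference of -0.24 with a wider error (SE 0.09, 95% interval -0.43 to -0.05, adjusted p = 0.184). CCN2 had a difference of 0.00 (95% interval -0.22 to 0.23), TEAD1 of -0.01 and WWTR1 of -0.04 (95% interval -0.15 to 0.07). For YAP1, AJUBA, AMOTL1, AMOTL2 and LATS2 the differences were -0.10, -0.10, -0.12, 0.09 and 0.13, none of them called.

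Levels between genes can be set side by side per transcript length, for which the deposited FPKM values were used. Over the 12 libraries YAP1 averaged 48.2 FPKM, CCN1 44.6, WWTR1 39.5, CCN2 34.0, TEAD1 27.9, AJUBA 22.4, ANKRD1 17.8, AMOTL2 14.8, LATS2 5.49 and AMOTL1 3.32 FPKM. YAP1 thus stood at the 86.6th percentile of the tested genes and AMOTL1 at the 24.0th. The level of CCN1 relative to YAP1 changed between groups: CCN1 averaged 73.5 ± 1.11 FPKM in shCD44 DMSO, above YAP1 at 52.1 ± 0.703 FPKM, and 28.2 ± 1.36 FPKM in shCtrl DMSO, below YAP1 at 44.8 ± 3.06 FPKM (SD, n = 3 each). With temozolomide CCN1 averaged 52.5 ± 2.52 FPKM in shCD44 cells and 24.0 ± 0.672 FPKM in shCtrl cells, beside 51.9 ± 1.06 and 44.3 ± 0.691 FPKM for YAP1 (SD, n = 3 each). CCN2 averaged 47.0 ± 5.94 FPKM in shCD44 temozolomide against 16.4 ± 1.37 FPKM in shCtrl temozolomide, and 53.7 ± 2.72 FPKM in shCD44 DMSO against 18.9 ± 1.54 FPKM in shCtrl DMSO. The ratio of CPM to FPKM in a gene, which can move with library scaling and with the transcript length behind the FPKM, varied up to 1.67-fold between libraries in AJUBA and 1.42-fold in WWTR1, against 1.08-fold to 1.24-fold in the other 8 genes. The source of this variation was not tested.

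**Figure D3:**
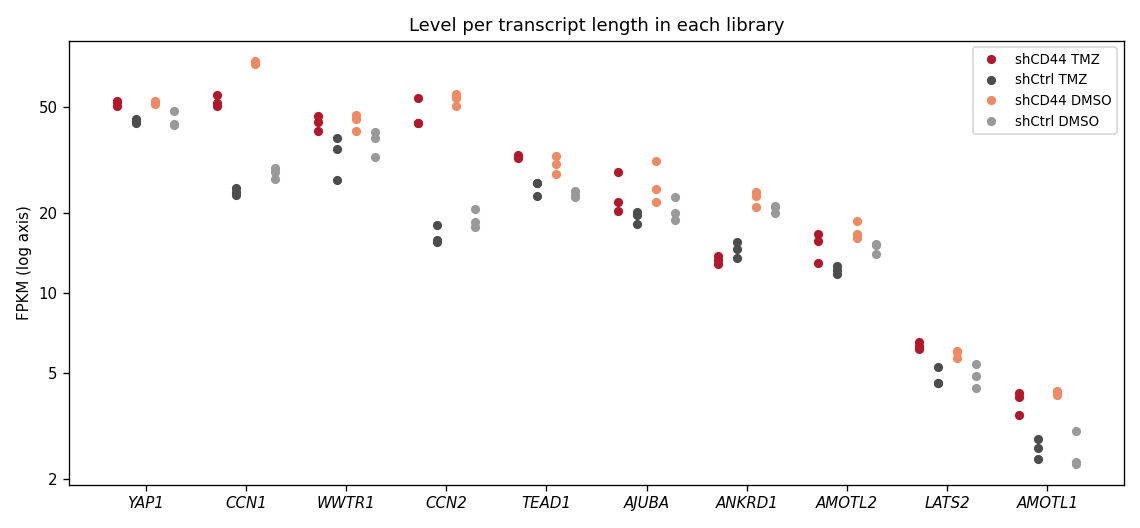
FPKM (log axis) of the 10 genes in each library, ordered by mean FPKM, with 1 point per library and colours for the 4 groups (TMZ is temozolomide). The shCD44 points of CCN1 and CCN2, from 43.5 to 74.7 FPKM, lie within or above the range of all YAP1 points (42.8 to 52.6 FPKM). CCN2 in shCD44 temozolomide averaged 47.0 FPKM, below YAP1 in the same group at 51.9 FPKM. The shCtrl points of CCN1 and CCN2, at most 29.5 FPKM, lie well below YAP1. LATS2 and AMOTL1 have the lowest levels, at 5.49 and 3.32 FPKM on average.

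The genes whose profiles over the 12 libraries were most like those of the 3 targets were found by the root-mean-square difference of log2 CPM, each profile centred on its own mean, among 10572 genes with a mean of at least 5 CPM. The nearest to CCN1 were ADAM12 (0.122 log2 units), SPP1 (0.130) and GRB10 (0.132). The nearest to CCN2 were HMGA2 (0.0737), AXL (0.130) and BIRC3 (0.131). ANKRD1 had a different set, CALD1 (0.0851), TNFSF10 (0.105) and VCAN (0.107). HMGA2, an architectural chromatin protein, averaged 21.8 ± 2.41 CPM in shCD44 temozolomide against 7.42 ± 0.735 CPM in shCtrl temozolomide, and 26.3 ± 1.23 CPM in shCD44 DMSO against 9.35 ± 0.721 CPM in shCtrl DMSO. CALD1, the actin-binding protein caldesmon, averaged 234 ± 5.98 CPM in shCD44 temozolomide and 389 ± 1.19 CPM in shCD44 DMSO, and 243 ± 1.71 CPM in shCtrl temozolomide and 353 ± 15.3 CPM in shCtrl DMSO. Like ANKRD1, for likeness to which it was selected over these same libraries, it divided the libraries by drug.

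A list of 17 further targets of YAP1 and TAZ, from a published pan-cancer signature without the genes above, was tested in full. This list was also chosen with earlier results of these data known. Under temozolomide 9 of 17 were higher and 1 lower in knockdown cells, with a median log2 fold change of 0.19, and under DMSO 11 were higher and 2 lower, with a median of 0.28. Over all genes tested 22% were higher and 20.3% lower under temozolomide, and 21.1% and 21.4% under DMSO. NT5E, the cell-surface enzyme CD73 that makes adenosine, averaged 88.1 ± 11.8 CPM in shCD44 temozolomide against 19.1 ± 1.78 CPM in shCtrl temozolomide (log2 fold change 2.19, adjusted p = 7.92e-14). Under DMSO NT5E averaged 96.5 ± 2.56 CPM in shCD44 cells against 24.2 ± 3.20 CPM in shCtrl cells (log2 fold change 2.00, adjusted p = 3.12e-13). AXL, a receptor tyrosine kinase, averaged 205 ± 11.5 CPM in shCD44 temozolomide against 79.1 ± 7.23 CPM in shCtrl temozolomide, and 231 ± 3.62 CPM in shCD44 DMSO against 103 ± 4.0 CPM in shCtrl DMSO (log2 fold changes 1.36 and 1.16). ASAP1, a GTPase-activating protein of focal adhesions, had log2 fold changes of 0.62 under temozolomide and 0.65 under DMSO. Of the lower genes, MYOF, a membrane-repair protein, had -0.19 under temozolomide and -0.26 under DMSO (adjusted p = 3.33e-05 and 5.27e-07), and the kinase gene NUAK2 had -0.04 under temozolomide, which was not called, and -0.18 under DMSO (adjusted p = 0.0252), a call lost in 11 alternatives, including those without shCD44 DMSO replicate 1 or 3 or shCtrl DMSO replicate 1 or 3 (log2 fold changes from -0.14 to -0.19).

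With temozolomide 8 of the 17 targets fell in knockdown cells and 9 in control cells, with medians of -0.22 and -0.17, and none was called higher. Over all genes tested 13.2% were lower and 9.05% higher in knockdown cells, and 15.8% were lower and 11.7% higher in control cells. MYOF had log2 fold changes of -0.37 in knockdown cells and -0.44 in control cells, and NUAK2 -0.40 and -0.55. TGFB2, a secreted growth factor, was the 1 gene of the list called in the difference between the drug responses. It averaged 78.3 ± 5.19 CPM in shCD44 temozolomide and 119 ± 3.15 CPM in shCD44 DMSO (log2 fold change -0.61, adjusted p = 3.44e-09), and 83.4 ± 1.36 CPM in shCtrl temozolomide and 104 ± 3.72 CPM in shCtrl DMSO (log2 fold change -0.32, adjusted p = 2.21e-05). The difference was -0.29 (SE 0.06, adjusted p = 0.0377), and it lost its call in 14 alternatives, among them a GC correction (-0.19), FPKM values (-0.28) and the fits that left out any library (-0.24 to -0.32) other than shCD44 temozolomide replicate 3, shCtrl temozolomide replicate 1 or shCtrl DMSO replicate 2.

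In the Hippo pathway list of kinases, scaffolds and upstream regulators, of 25 tested among 26 listed, 10 were higher and 8 lower in knockdown cells under temozolomide, and 8 were higher and 5 lower under DMSO, with medians of 0.04 and 0.09. The background was 22% of all genes higher and 20.3% lower under temozolomide, and 21.1% and 21.4% under DMSO. Calls in both directions are thus common outside the list as well. In either direction 18 of the 25 were called under temozolomide and 13 under DMSO, beside 42.3% and 42.6% of all genes tested. PTPN14, a phosphatase that binds YAP1 and is also in the signature, averaged 181 ± 6.84 CPM in shCD44 temozolomide against 133 ± 3.37 CPM in shCtrl temozolomide, and 215 ± 3.48 CPM in shCD44 DMSO against 150 ± 8.93 CPM in shCtrl DMSO (log2 fold changes 0.44 and 0.52). MAP4K4, a kinase that acts in parallel to STK3 and STK4, had log2 fold changes of 0.33 under temozolomide and 0.31 under DMSO. LATS1, the paralogue of LATS2, averaged 90.4 ± 1.84 CPM in shCD44 temozolomide against 78.7 ± 2.22 CPM in shCtrl temozolomide, and 86.1 ± 2.82 CPM in shCD44 DMSO against 70.7 ± 4.87 CPM in shCtrl DMSO (log2 fold changes 0.20 and 0.29, adjusted p = 0.00123 and 5.1e-05). The lower genes were led by WWC3, of the WW- and C2-domain scaffolds that promote LATS activity, at 33.4 ± 1.48 CPM in shCD44 temozolomide against 55.8 ± 0.813 CPM in shCtrl temozolomide, and at 31.0 ± 2.11 CPM in shCD44 DMSO against 56.7 ± 0.920 CPM in shCtrl DMSO (log2 fold changes -0.74 and -0.87). AMOT, the founding angiomotin, had log2 fold changes of -0.38 under temozolomide and -0.22 under DMSO, the opposite direction to AMOTL1 and AMOTL2. FRMD6, a membrane-linked activator of the pathway, had -0.19 and -0.29, and FAT4, an atypical cadherin, had -0.26 and -0.23. FAT4 under DMSO missed the threshold on FPKM values (-0.14). With temozolomide 1 gene of this list was higher and 6 were lower in knockdown cells, and 5 were higher and 6 lower in control cells, with medians of -0.00 and 0.04, where 9.05% and 13.2% of all genes were called higher and lower in knockdown cells and 11.7% and 15.8% in control cells.

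Of the other TEAD factors and the TEAD cofactors of the VGLL family, 4 of 6 were tested. VGLL3 was higher in knockdown cells with both treatments, at 8.20 ± 0.901 CPM in shCD44 temozolomide against 5.28 ± 0.897 CPM in shCtrl temozolomide, and at 8.63 ± 1.12 CPM in shCD44 DMSO against 4.90 ± 0.935 CPM in shCtrl DMSO (log2 fold changes 0.64 and 0.82, adjusted p = 0.00182 and 0.000262). On FPKM values the call under DMSO was lost (0.40). TEAD2 had a log2 fold change of -0.01 under temozolomide and -0.29 under DMSO (adjusted p = 0.938 and 0.00647), a difference that did not pass the threshold (0.28, adjusted p = 0.207). TEAD2 under DMSO lost its call without shCD44 DMSO replicate 3 (-0.24). TEAD3 and TEAD4, named because they are the rest of the tested list, were called in neither treatment. With temozolomide TEAD2 was the 1 gene of this list called, lower in control cells, and none was called in knockdown cells. Of 12 paralogues of the 10 genes 9 were tested, several of which stand in the lists above, with 2 higher and 1 lower in knockdown cells under temozolomide and 1 higher and 2 lower under DMSO, beside 42.3% and 42.6% of all genes called in either direction. With the drug 2 were lower in knockdown cells, and 1 was higher and 3 lower in control cells, beside 22.3% and 27.5% of all genes called in either direction. WTIP, a LIM-domain paralogue of AJUBA, was called under temozolomide, at 4.48 ± 0.822 CPM in shCD44 cells against 2.91 ± 1.28 CPM in shCtrl cells (log2 fold change 0.66, SE 0.26, adjusted p = 0.0447), a call lost without replicate 1 or 2 of shCD44 temozolomide (0.67 and 0.51), without replicate 1 or 3 of shCtrl temozolomide (0.53 and 0.46), with DESeq2 (0.63) and with a GC correction (0.61).

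**Figure D4:**
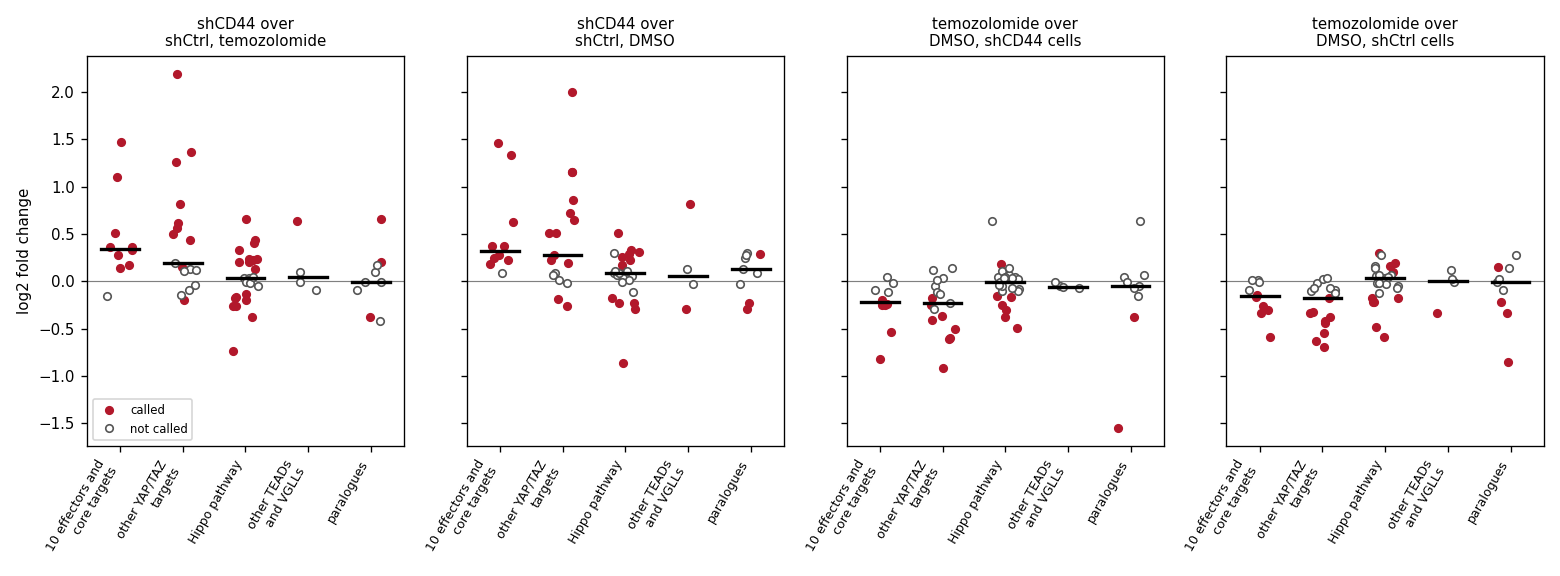
log2 fold changes (vertical axis) of the 10 genes and of the other lists in 4 comparisons; each point is a gene, filled where called, black bars are list medians and the horizontal line is at 0. The medians of the 10 genes and of the other YAP/TAZ targets are 0.35 and 0.19 for knockdown under temozolomide, 0.32 and 0.28 for knockdown under DMSO, -0.22 and -0.22 for the drug in shCD44 cells, and -0.15 and -0.17 for the drug in shCtrl cells.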

How the data were processed

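Poly(A) RNA of 12 libraries in 4 groups of 3 was sequenced, per the labels' protocols. The authors deposited estimated counts per gene, not all of them whole, per the file headers. The authors also deposited FPKM values, in which fragments were scaled by transcript length and library size before deposit, per the file headers. The submitters' processing notes name RSEM, StringTie 1.3.1, HISAT2, Bowtie2 2.2.8 and fastp 0.18.0. Not given in the sources used here are their roles, the genome build, the annotation and the strand setting.

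Estimated counts were rounded, filtered with filterByExpr (minimum count 10, minimum total 15) and scaled by TMM in edgeR 4.0.16 (R 4.3.3). A single quasi-likelihood fit of 12821 genes held a mean for each of the 4 groups, after which 5 pairwise or combined contrasts and the difference of the drug responses were tested with Benjamini-Hochberg adjustment at 0.05 over all genes tested. SE is the log2 fold change divided by the root of F; 95% intervals use the moderated degrees of freedom. CPM uses TMM library sizes. The code was tested on simulated data. Of the 20289 genes, 583 rows carry no symbol and were used by their IDs. Replicates of a group differed by more than sampling noise, so none was merged. Same-numbered libraries did not deviate together (18 pairs, r from -0.08 to 0.14), so the replicate number was left out of the model.

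The 10 genes and all lists were chosen with earlier results of these data known. Further genes were named by rule: up to 3 called genes per direction and list with the smallest p in either knockdown comparison, list genes called in the difference of responses, and the 3 nearest profiles of CCN1, CCN2 and ANKRD1. Alternatives comprised DESeq2 1.42.0, limma 3.58.1 on log2(FPKM + 1) or log2(FPKM + 0.1), other scalings and filters, a GC correction (GENCODE 29 lengths and GC of 12782 genes), a replicate block, a threshold of 0.01 and each library left out.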

Additional observations from a re-analysis of the deposited data

Results flagged for a closer look

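TGFB2, one of the further YAP/TAZ targets, fell more with temozolomide in knockdown than in control cells: the log2 fold changes were -0.61 in shCD44 cells and -0.32 in shCtrl cells, and the difference between them was -0.29 (SE 0.06, edgeR adjusted p = 0.0377). It was set apart because the difference itself passed its test. Over the alternatives the adjusted p ran from 0.00215 to 0.249, and the difference was -0.19 with a GC correction.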

How the results depend on the processing

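Estimates of the 10 genes that were called kept their direction under every alternative run. The knockdown calls of YAP1, TEAD1, AMOTL1, CCN1 and CCN2 and the temozolomide calls of CCN1 and ANKRD1 held under all of them. "Only the groups compared" could not be run for the difference between the drug responses, which needs all 4 groups. The replicate block changed no call of the 10 genes; in the difference of responses it gave 103 genes higher and 119 lower, in place of 56 and 79, and for 6 of 12 libraries the nearest deviations carried the same number.

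Counts that moved by over 1.5 times are given by setting. On log2(FPKM + 1), log2(FPKM + 0.1) and unfiltered log2(FPKM + 1), genes lower under knockdown numbered 1610, 1551 and 1585 with temozolomide (main 2603) and 1667, 1617 and 1659 with DMSO (main 2748). Genes lower with temozolomide numbered 655, 619 and 676 in shCD44 cells (main 1694), with 2, 2 and 2 of the 10 genes, and 850, 806 and 865 in shCtrl cells (main 2024), with 3, 2 and 2 of the 10 genes (main 6 in both). In the combined comparison 1716, 1679 and 1715 were lower (main 3143). In the difference 2, 2 and 4 were higher and 1, 0 and 1 lower. With library totals alone, temozolomide gave 2533 higher and 1078 lower in shCD44 cells, 2870 higher, 1295 lower and 3 of the 10 genes lower in shCtrl cells, and the combined comparison 5053 higher and 2039 lower. DESeq2 gave 687 genes higher with temozolomide in shCD44 cells (main 1160). In the difference DESeq2 gave 130 higher and 243 lower, no low-count filter 187 and 359, each with 1 of the 10 genes (CCN1) lower, and a GC correction 10 and 23. The GC correction also called 1 of the 10 genes (ANKRD1) lower in shCD44 against shCtrl under temozolomide. At 0.01 temozolomide gave 504 higher and 1074 lower in shCD44 cells and 812 higher in shCtrl cells, and the difference 4 and 9. A stricter threshold lowers counts by construction; the cause of the other shifts was not tested.

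With each library left out in turn, the difference ranged from 5 to 210 genes higher and from 13 to 212 lower, with 0 to 1 of the 10 genes lower. Temozolomide ranged from 733 to 1186 genes higher and 1320 to 1845 lower in shCD44 cells, and from 1071 to 1537 higher and 1548 to 2053 lower in shCtrl cells, with 4 to 6 of the 10 genes lower in both. Knockdown ranged from 2434 to 2799 higher and 2250 to 2738 lower under temozolomide, with 8 to 9 of the 10 genes higher and 0 to 1 lower, and from 2352 to 2733 higher and 2262 to 2790 lower under DMSO, with 7 to 9 of the 10 genes higher. Depth limits the low genes most: WTIP had 24 to 111 counts per library.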
